A study of Mus musculus with 8 samples.

Results

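The genes described are 10 that encode secreted or intracellular parts of Wnt signalling: the ligands Wnt5a, Wnt5b and Wnt9a, the R-spondins Rspo2 and Rspo3, the secreted inhibitors Sfrp1, Sfrp2, Dkk2 and Dkk3, and the feedback gene Axin2. They were taken by symbol from 54838 gene rows, and all 10 were found and passed the filter on low counts in each comparison. The set was proposed with results of these libraries in view, so the genes count as selected on their counts and fold changes in all 8 libraries. Their values are therefore a description, and no p-value is given for them.

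Wnt proteins bind Frizzled receptors. With the co-receptors Lrp5 and Lrp6 they stabilise beta-catenin, which then acts with TCF/LEF factors on target genes such as Axin2. R-spondins bind Lgr receptors and remove the ubiquitin ligases Rnf43 and Znrf3, which otherwise clear Frizzled receptors from the cell surface. Sfrp proteins bind Wnt ligands, and Dkk proteins of the Dkk2 kind bind Lrp5 and Lrp6. In connective tissue these secreted factors are known to pattern limb, cartilage and bone.

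The libraries were made from polyadenylated RNA of mouse embryonic fibroblasts (MEFs), primary connective tissue cells of the mouse embryo. There were 8 libraries, 2 for each of 4 conditions. The Proliferating group has no senescence treatment in its title or treatment label. The n-Sen group was made senescent through nutlin3a, which blocks the binding of MDM2 to p53. RO3306, an inhibitor of CDK1, first arrested these cells at G2, and nutlin3a followed for 48 h. BI-2536, which inhibits PLK1, was then present at 100 nM for 14 days so that dividing cells were lost. For n-Sen_control and n-Sen_alkali, n-Sen cells spent a further 24 h in medium buffered with HEPES, at a control or an alkaline pH whose values the labels do not give. All groups were MEFs grown in medium with serum under low oxygen. Senescence cannot be told apart from the inhibitors and the time in culture. The labels name no separate cultures, so the spread within a group may be technical. In these bulk libraries, fewer cells of a type and less RNA per cell cannot be told apart.

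Total counts ran from 40608517 to 54183060 per library. The 12 fibroblast markers summed to 16820 to 17147 CPM (counts scaled to a common library size, with TMM factors) in Proliferating, 37428 to 38294 in n-Sen, 34670 to 38622 in n-Sen_control and 38868 to 39574 in n-Sen_alkali. They did not move as 1 group. In n-Sen 8 were called higher and 4 lower, with Fn1 3.67-fold higher and Pdgfra 8.96-fold lower. In alkaline medium 3 were called higher and 8 lower. Over all genes tested, 34.0% were called higher and 33.1% lower in n-Sen, and 9.58% higher and 10.4% lower in alkaline medium. The 15 macrophage markers were called higher in n-Sen in 15 of 15 cases. Their summed level ran from 53.1 to 60.3 CPM in Proliferating, from 1187 to 1259 in n-Sen, from 1156 to 1216 in n-Sen_control and from 1060 to 1067 in n-Sen_alkali, and none was at 0. Cartilage and bone markers summed to 929 to 948 CPM in Proliferating and 645 to 669 in n-Sen (2 higher and 5 lower of 9 tested), where Col2a1 was 13.2-fold lower and Col10a1 76.1-fold higher. They summed to 656 to 768 CPM in n-Sen_control and 520 to 563 in n-Sen_alkali (2 higher and 5 lower of 10). Epithelial and mesothelial markers summed to 93.6 to 98.8 CPM in Proliferating and 11.0 to 11.1 in n-Sen (1 higher and 6 lower of 9), and endothelial markers to 31.4 to 37.5 and 8.44 to 9.58 CPM (1 higher and 3 lower of 6). Both sums were at most 18.1 CPM in the other groups, and the endothelial marker Cldn5 was at 0 in each library. Fn1, Pdgfra, Col2a1 and Col10a1 were picked as examples after their values were seen. The part of these marker changes in the values below was not tested.

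The 250 bases before the annotated start are shown for Wnt9a, which was higher in n-Sen and again in alkaline medium, and for Sfrp2 and Dkk2, which were lower in both. They are from RefSeq on GRCm38.p6 and lie at chr11:59306680-59306929 (Wnt9a), chr3:83766071-83766320 (Sfrp2) and chr3:132085042-132085291 (Dkk2), each on the plus strand. Capitals mark a TATAAA match.
Wnt9a: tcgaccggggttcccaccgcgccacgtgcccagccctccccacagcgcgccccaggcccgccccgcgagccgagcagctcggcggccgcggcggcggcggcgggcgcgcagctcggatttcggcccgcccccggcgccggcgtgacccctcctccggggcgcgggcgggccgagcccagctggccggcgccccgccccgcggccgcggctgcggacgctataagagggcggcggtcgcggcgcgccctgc
Sfrp2: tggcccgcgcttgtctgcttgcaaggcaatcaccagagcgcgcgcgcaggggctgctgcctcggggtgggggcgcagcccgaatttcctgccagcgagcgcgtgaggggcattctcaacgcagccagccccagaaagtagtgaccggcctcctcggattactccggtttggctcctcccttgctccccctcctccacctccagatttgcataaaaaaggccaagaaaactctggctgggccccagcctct
Dkk2: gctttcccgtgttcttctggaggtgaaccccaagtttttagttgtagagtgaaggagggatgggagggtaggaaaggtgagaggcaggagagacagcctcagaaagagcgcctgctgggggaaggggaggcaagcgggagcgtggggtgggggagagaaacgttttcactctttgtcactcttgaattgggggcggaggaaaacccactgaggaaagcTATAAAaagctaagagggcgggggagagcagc
Windows were found for 5 of the 10 genes (Wnt5b, Wnt9a, Sfrp2, Dkk2 and Axin2), 7 windows in all because Wnt5b has 3 starts. The TCF/LEF letters sought on both strands were CTTTGAA as the first form, CTTTGAT as the next, CTTTGTA as another and CTTTGTT as the last. They were found in 1 of the 7 windows, at 71 bases before a start of Wnt5b, and in 14.8% of 32851 windows of this length. TATAAA, on both strands, was found in 1 of the 7, at 32 bases before the start of Dkk2, and in 12.4% of all windows. No window of the 7 held both motifs, so no matches overlapped, and the Axin2 window held neither.

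Among the ligands, Wnt9a had the largest range over the groups. Wnt9a (chromosome 11, 59306928 to 59333552), a ligand known from joint formation, stood at 3.65 and 2.89 CPM in Proliferating, 22.0 and 25.6 in n-Sen, 19.1 and 20.8 in n-Sen_control, and 61.6 and 57.5 in n-Sen_alkali. The alkaline libraries were the highest and the proliferating ones the lowest, and no groups overlapped. Its mean was 7.28-fold higher in n-Sen than in Proliferating (log2 difference 2.88 ± 0.14, SE) and 2.98-fold higher in alkaline than in control medium (1.57 ± 0.073). In control medium against n-Sen the log2 difference was -0.25 ± 0.096 and did not pass the threshold, an adjusted p of 0.05 in the fit over all genes. From the lowest to the highest group its mean spanned an 18.2-fold range.

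Wnt5a (chromosome 14, 28504750 to 28527448), the ligand best known for beta-catenin-independent signalling through Ror receptors, had the highest level per exon length of the 3 ligands in each group. It stood at 119 and 129 CPM in Proliferating, 183 and 173 in n-Sen, 188 and 203 in n-Sen_control, and 235 and 241 in n-Sen_alkali. The groups came in this order without overlap, with a span of 1.92-fold. The log2 difference was 0.53 ± 0.058 for n-Sen against Proliferating and 0.28 ± 0.047 for alkaline against control medium. Its exons share 358 bases with the antisense gene Gm2670, whose counts were at most 2.91% of those of Wnt5a.

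Wnt5b (chromosome 6, 119432531 to 119544347), its close paralogue, stood at 2.14 and 2.97 CPM in Proliferating, 4.72 and 4.42 in n-Sen, 5.84 and 5.47 in n-Sen_control, and 7.43 and 6.16 in n-Sen_alkali. The order of its groups was that of Wnt5a, again without overlap. The log2 difference was 0.83 ± 0.21 for n-Sen against Proliferating. For alkaline against control medium it was 0.26 ± 0.15 and did not pass.

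Both R-spondins were several-fold higher in n-Sen than in Proliferating and lower in alkaline than in control medium. Rspo2 (chromosome 15, 43020794 to 43170826), an activator of Wnt signalling known from limb and lung development, stood at 19.4 and 19.6 CPM in Proliferating and 83.8 and 78.6 in n-Sen. It stood at 48.8 and 46.1 CPM in n-Sen_control and 12.7 and 11.3 in n-Sen_alkali. The alkaline libraries were the lowest of the 8, below the proliferating ones. The mean was 4.16-fold higher in n-Sen (log2 difference 2.06 ± 0.073) and 3.95-fold lower in alkaline medium (-1.99 ± 0.084).

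Rspo3 (chromosome 10, 29452416 to 29535867), which is known from blood vessel development, stood at 2.88 and 3.72 CPM in Proliferating, 30.8 and 28.5 in n-Sen, 18.4 and 18.9 in n-Sen_control, and 13.3 and 14.5 in n-Sen_alkali. Its alkaline libraries remained above the proliferating ones, unlike those of Rspo2. The mean was 8.98-fold higher in n-Sen (3.16 ± 0.13) and 1.34-fold lower in alkaline medium (-0.43 ± 0.099). Both R-spondins were also lower in control medium than in n-Sen, with log2 differences of -0.77 ± 0.070 for Rspo2 and -0.67 ± 0.10 for Rspo3. The exons of Rspo3 share 404 bases with the antisense gene Gm48159, whose own counts were at most 16.0% of those of Rspo3.

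The secreted inhibitors divided in n-Sen, where Sfrp1 and Dkk3 were higher and Sfrp2 and Dkk2 lower than in Proliferating, while all 4 were lower in alkaline than in control medium. Dkk3 (chromosome 7, 112116017 to 112159057), a divergent Dickkopf family member, stood at 53.2 and 52.8 CPM in Proliferating, 387 and 385 in n-Sen, 393 and 386 in n-Sen_control, and 261 and 273 in n-Sen_alkali. Its n-Sen and n-Sen_control libraries overlapped, and the other groups did not. The mean was 7.29-fold higher in n-Sen (2.87 ± 0.053) and 1.46-fold lower in alkaline medium (-0.55 ± 0.042).

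Sfrp1 (chromosome 8, 23411502 to 23449632), a Frizzled-related protein that binds Wnt ligands, stood at 42.7 and 41.5 CPM in Proliferating, 92.2 and 85.7 in n-Sen, 114 and 101 in n-Sen_control, and 68.8 and 80.1 in n-Sen_alkali. It was highest in control medium and lowest in Proliferating, with no overlap between groups. The log2 difference was 1.08 ± 0.065 in n-Sen and -0.53 ± 0.067 in alkaline medium.

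Sfrp2 (chromosome 3, 83766321 to 83774316), a relative of Sfrp1, stood at 11.0 and 10.4 CPM in Proliferating, 4.54 and 4.18 in n-Sen, 6.17 and 6.63 in n-Sen_control, and 1.54 and 1.27 in n-Sen_alkali. It was highest in Proliferating and lowest in alkaline medium, the reverse of Wnt9a at both ends. The mean was 2.44-fold lower in n-Sen (-1.29 ± 0.14) and 4.56-fold lower in alkaline medium (-2.20 ± 0.20). Its exons share 347 bases with the antisense gene Gm26771, whose own counts were at most 12.3% of those of Sfrp2.

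Dkk2 (chromosome 3, 132085292 to 132180304), an Lrp5 and Lrp6 antagonist, followed the same order as Sfrp2. It stood at 60.3 and 57.5 CPM in Proliferating, 30.4 and 30.9 in n-Sen, 31.4 and 32.2 in n-Sen_control, and 11.0 and 11.4 in n-Sen_alkali. No groups overlapped, and n-Sen and n-Sen_control lay close together. The mean was 1.92-fold lower in n-Sen (-0.94 ± 0.071) and 2.84-fold lower in alkaline medium (-1.51 ± 0.090). Between control medium and n-Sen, Dkk2 and Dkk3 differed by 0.05 ± 0.073 and 0.01 ± 0.044 on the log2 scale.

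Axin2 (chromosome 11, 108920349 to 108950783), a scaffold of the beta-catenin destruction complex and a widely used target gene of the pathway, had the lowest level per exon length of the 10 in each group. It stood at 1.20 and 0.617 CPM in Proliferating, 2.61 and 3.00 in n-Sen, 2.38 and 2.57 in n-Sen_control, and 1.29 and 2.05 in n-Sen_alkali. The n-Sen libraries were the highest and the proliferating ones the lowest, without overlap, with a coefficient of variation of 45.4% in Proliferating and 32.1% in n-Sen_alkali, and of 9.68% in n-Sen and 5.54% in n-Sen_control. The log2 difference was 1.65 ± 0.31 in n-Sen. In alkaline medium it was -0.57 ± 0.26 and did not pass, although it did without n-Sen_alkali replicate 2 (-0.95). Over the alternatives this difference ran from -0.95 to -0.28. Its antisense neighbour Gm11670 shares 209 exon bases and had between 1 and 10 counts, up to 22.6% of those of Axin2.

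**Figure D1:**
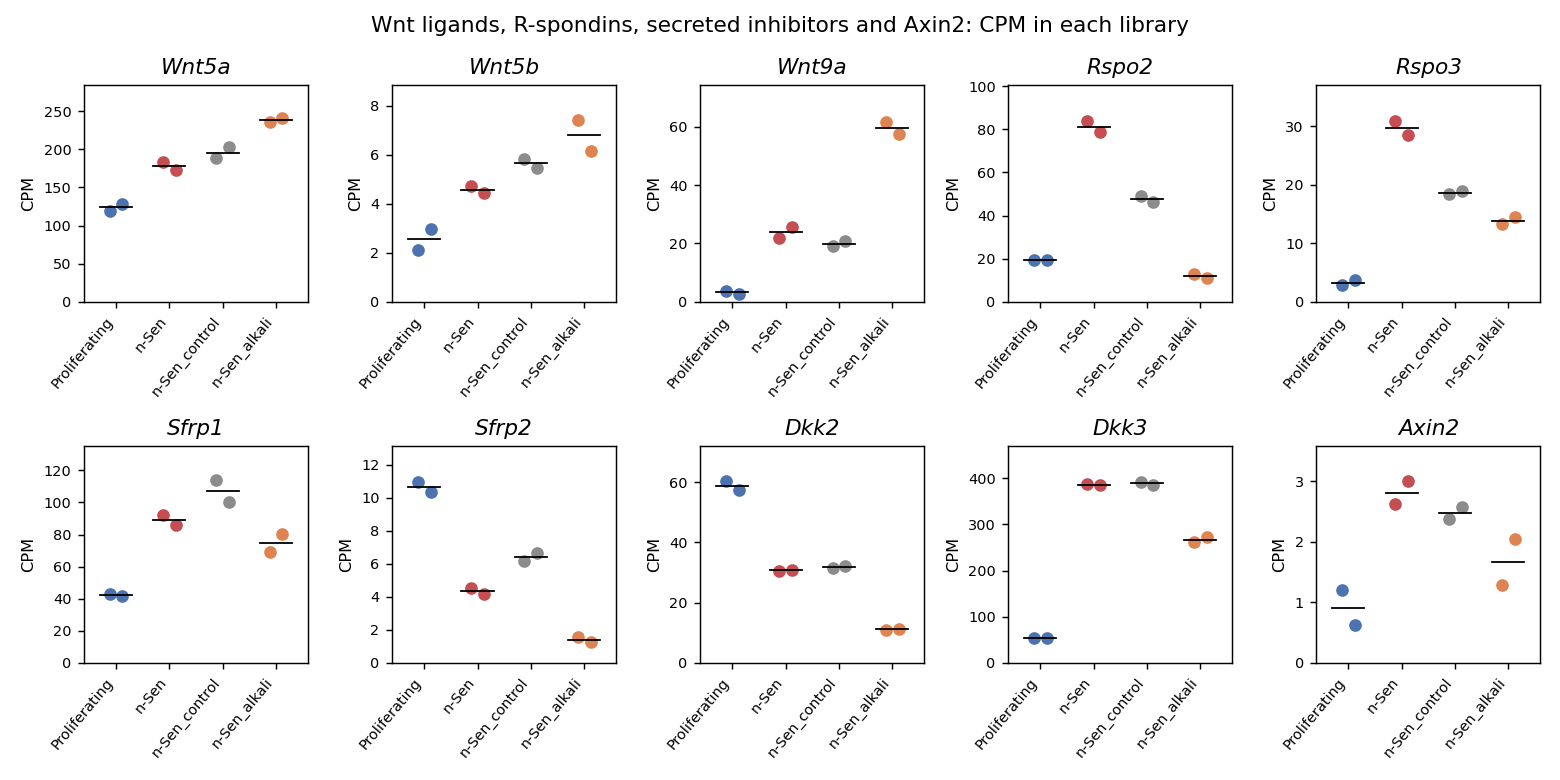
CPM of each of the 10 genes (vertical axes, starting at 0) in the 8 libraries by group; points are libraries and lines are means of 2. Rspo2 is highest in n-Sen, and its n-Sen_alkali libraries at 12.7 and 11.3 CPM lie under the proliferating ones, while Wnt9a is highest there at 61.6 and 57.5 CPM.

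In n-Sen against Proliferating 8 of the 10 genes were called higher and 2 lower, where 67.1% of all 19264 genes tested were called (34.0% higher, 33.1% lower). The libraries did not overlap for 10 of the 10, and for 83.4% of all genes. In alkaline against control medium 2 were called higher, 6 lower and 2 did not pass, where 20.0% of 19129 genes were called (9.58% higher, 10.4% lower). The libraries did not overlap for 10 of the 10, and for 56.7% of all genes. The median log2 difference of the 10 was 1.37 in the first comparison and -0.54 in the second, beside 0.0015 and -0.0093 over all genes tested. Since the genes had been chosen with these results known, nothing is read from these counts.

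The 2 comparisons share no library. Rspo2, Rspo3, Sfrp1 and Dkk3 were called higher in n-Sen and lower in alkaline medium, as were 6.09% of the 18484 genes tested in both. Wnt5a and Wnt9a were called higher in both (4.21% of all genes), and Sfrp2 and Dkk2 lower in both (2.78%). None of the 10 was lower in n-Sen and higher in alkaline medium (3.51% of all genes). Control medium against n-Sen, which compares across the 2 deposited tables and shares libraries with both other comparisons, had 4 of the 10 called, where 11.1% of 20215 genes were called (6.18% higher, 4.96% lower). The libraries did not overlap for 9 of the 10, Dkk3 being the exception, and for 52.0% of all genes. Sfrp1 (0.27 ± 0.071) and Sfrp2 (0.55 ± 0.15) were higher and both R-spondins lower. Of these, Rspo2 and Rspo3 passed without each library in turn, while Sfrp1 did not without n-Sen replicate 2 (0.22) or n-Sen_control replicate 1 (0.18), and Sfrp2 did not without any 1 of the 4 libraries (0.49 to 0.61).

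**Figure D2:**
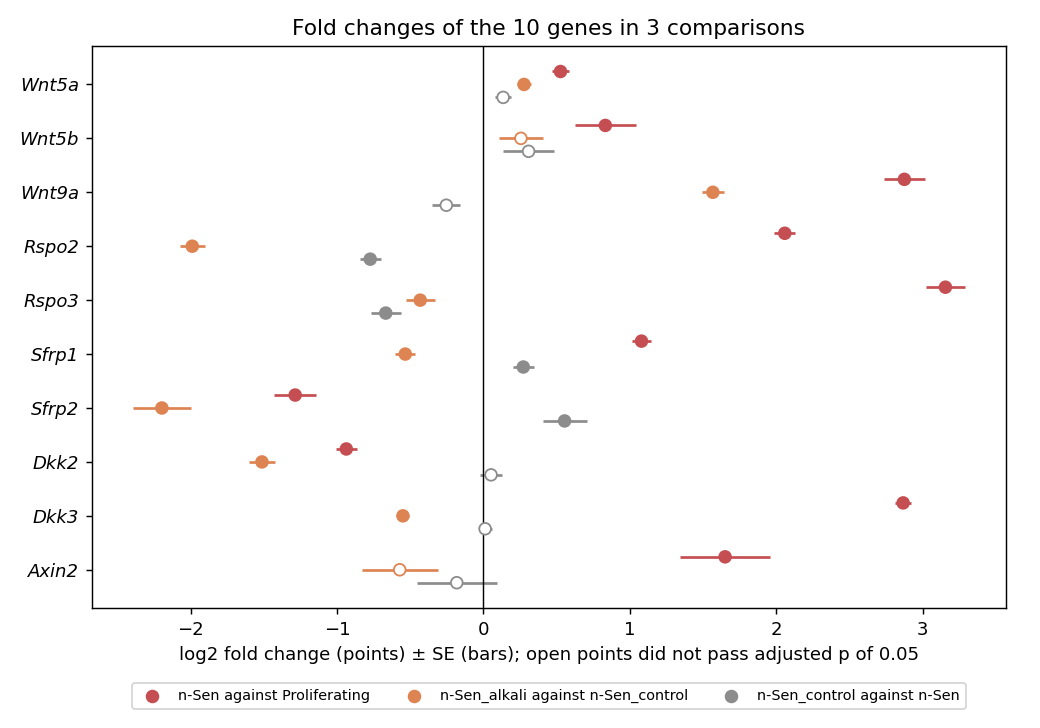
Log2 fold change (horizontal axis) of the 10 genes in 3 comparisons; points are edgeR estimates, bars are SE and open points did not pass an adjusted p of 0.05. Rspo2 lies at 2.06 in n-Sen against Proliferating and at -1.99 in alkaline against control medium, and Wnt9a lies above 0 in both.

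Levels of different genes were compared as mean CPM per kb of exon. In Proliferating, Dkk2 (15.9), Wnt5a (15.8) and Dkk3 (15.8) led and overlapped, followed by Sfrp1 (9.64), Sfrp2 (4.95) and Rspo2 (3.81). Rspo3 (1.07), Wnt9a (0.981) and Wnt5b (0.961) overlapped each other in turn, above Axin2 (0.165). In n-Sen, Dkk3 (115) stood above Wnt5a (22.8), Sfrp1 (20.3), Rspo2 (15.9), Rspo3 (9.59), Dkk2 (8.28) and Wnt9a (7.15), and no neighbours overlapped. In n-Sen_control the order differed from n-Sen in that Dkk2 (8.58) stood above Rspo3 (6.04), and Wnt5a overlapped Sfrp1 and Rspo3 overlapped Wnt9a. In n-Sen_alkali, Wnt9a (17.9) ranked below Wnt5a (30.4) and overlapped Sfrp1 (17.0), while Rspo2 (2.35) overlapped Wnt5b (2.56).

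The rest of the pathway was listed by role, 98 genes without the 10, of which 83 were tested in n-Sen against Proliferating: 42 rose, 19 fell and 22 did not pass (median log2 difference 0.23), where 67.1% of all genes tested were called. In alkaline against control medium 12 of 81 rose, 22 fell and 47 did not pass (median -0.036), where 20.0% of all genes were called. In control medium against n-Sen 8 of 86 rose and 14 fell, where 11.1% of all genes were called. The counts by role that follow are to be read beside these shares: 34.0% of all genes were called higher and 33.1% lower in n-Sen, and 9.58% higher and 10.4% lower in alkaline medium. The lists by role overlap, so their counts are not separate. Genes named from these lists were mostly picked for the smallest p, and the lists were chosen with earlier results known. The adjusted p-values printed for them are therefore descriptive and not independent evidence. Lgr5, Rnf43, Znrf3, Notum, Dkk1, Wif1, Tcf7 and Lef1 were also listed among the target and feedback genes.

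Of the other ligands, 3 rose, 1 fell and 4 did not pass in n-Sen. Wnt16, known from bone and skin, rose from 2.24 ± 0.70 to 21.4 ± 1.3 CPM (SD, n = 2; edgeR adjusted p 9.17e-12), and Wnt2 and Wnt10a rose by 1.06 ± 0.18 and 1.30 ± 0.22 on the log2 scale. In alkaline medium 3 of 9 rose and 2 fell. Wnt10b, known from bone formation, rose from 7.39 ± 0.22 to 17.3 ± 0.17 CPM (edgeR adjusted p 1.91e-08). Wnt1 rose from 0.192 ± 0.16 CPM to libraries at 2.92 and 1.11 CPM, which differed widely. Wnt16 fell by 0.41 on the log2 scale and Wnt10a by 0.98, neither of which passed without n-Sen_control replicate 2 (adjusted p of up to 0.10 and 0.19 over the alternatives in edgeR and DESeq2). In control medium against n-Sen the log2 difference was 1.47 ± 0.12 for Wnt2, 1.26 ± 0.17 for Wnt11 and -0.61 ± 0.13 for Wnt16. Wls, the carrier that brings Wnt proteins to the cell surface, rose in n-Sen from 231 ± 1.0 to 622 ± 5.0 CPM. It did not pass in alkaline medium (-0.03 ± 0.039).

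The R-spondin receptors Lgr4, Lgr5 and Lgr6 all rose in n-Sen, whereas in alkaline medium Lgr5 fell, Lgr6 rose and Lgr4 did not pass. Lgr5, itself a target of the pathway, rose in n-Sen from 1.10 ± 0.13 to 13.5 ± 0.27 CPM (edgeR adjusted p 4.77e-12) and fell in alkaline medium from 8.36 ± 1.6 to 2.58 ± 0.21 CPM (edgeR adjusted p 1.29e-07), the directions seen for Rspo2 and Rspo3. Lgr6 rose in both, by 0.70 ± 0.21 and 0.70 ± 0.11, and the log2 difference of Lgr4 was 0.28 ± 0.068 in n-Sen and -0.08 ± 0.061 in alkaline medium. In control medium against n-Sen, the log2 difference was 0.98 ± 0.16 for Lgr6 and -0.70 ± 0.15 for Lgr5. Rspo1 had 38 counts in the 2 Proliferating libraries and none in n-Sen, 13.9-fold lower if 3 counts are taken as the floor for the group. This bound leaves out other error and treats each count as independent. Most low whole counts were even, so the bound may be too high.

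Of the other secreted inhibitors and their partners, 5 of 7 tested rose and 1 fell in n-Sen, and 2 of 5 fell in alkaline medium. Sfrp4 rose from 0.630 ± 0.0092 to 8.31 ± 1.8 CPM and Frzb, another Frizzled-related protein, from 5.21 ± 0.34 to 19.8 ± 0.16 CPM. In alkaline medium Frzb fell by 0.42 and Sfrp4 by 0.49 on the log2 scale, neither of which passed without n-Sen_control replicate 1 (edgeR adjusted p 0.058 and 0.14). Dkk1, the best-known Dickkopf inhibitor, fell in n-Sen from 0.917 ± 0.28 to 0.0643 ± 0.091 CPM.

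The list of receptors and co-receptors held the Frizzled genes, Lrp5 and Lrp6, and also Ror1, Ror2, Ryk, Ptk7, Vangl1, Vangl2, Prickle1 and Prickle2. Of its 20 genes 11 rose, 4 fell and 5 did not pass in n-Sen, and 1 rose and 5 fell in alkaline medium. Ror2, a Wnt5a receptor, fell in n-Sen by 1.14 on the log2 scale while Ror1 rose by 1.64 ± 0.13. In alkaline medium Fzd7 fell by 0.29 and Fzd4 by 1.06 on the log2 scale, and Fzd6 rose by 0.55 ± 0.13. Lrp5 and Lrp6 differed by -0.01 ± 0.055 and -0.02 ± 0.048 there and did not pass. Of the cytoplasmic genes 9 of 16 rose and 4 fell in n-Sen, and 4 rose and 2 fell in alkaline medium. Ctnnb1, which encodes beta-catenin, rose from 623 ± 10 to 713 ± 6.1 CPM in alkaline medium. Of 14 nuclear components 3 rose and 4 fell in n-Sen, and 1 rose and 2 fell in alkaline medium.

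**Figure D3:**
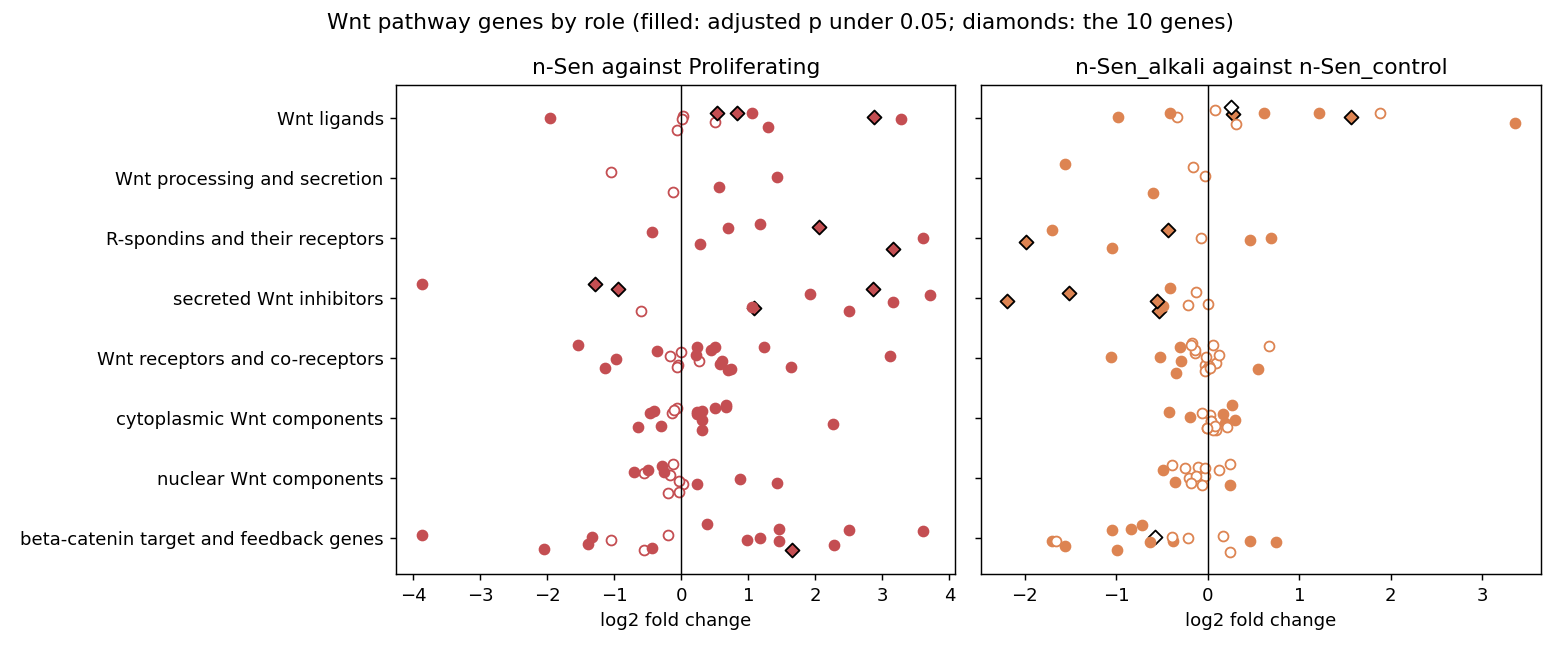
Log2 fold changes (horizontal axes) of the pathway genes tested, by role (rows), in n-Sen against Proliferating and in alkaline against control medium; filled points passed an adjusted p of 0.05, diamonds are the 10 genes, vertical scatter has no meaning and Rspo1 (no count in n-Sen) is not drawn. Of the target and feedback genes other than Axin2, 8 of 15 lie below 0 as filled points in alkaline medium.

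Target and feedback genes other than Axin2 rose in 8 of 16 cases and fell in 5 in n-Sen (median 0.10). In alkaline medium 2 of 15 rose, 8 fell and 5 did not pass (median -0.63). Nkd1, an inhibitor of Dishevelled, rose in n-Sen by 2.28 ± 0.16 and fell in alkaline medium from 7.67 ± 0.063 to 4.31 ± 0.98 CPM (edgeR adjusted p 0.000497). Ccnd1, which encodes cyclin D1, rose in n-Sen by 0.39 ± 0.051 on the log2 scale. In alkaline medium Ccnd1 fell from 402 ± 0.0024 to 203 ± 4.9 CPM (edgeR adjusted p 5.72e-14). Ccn4, a matricellular protein, rose there from 389 ± 0.59 to 657 ± 11 CPM (edgeR adjusted p 1.91e-12). Myc fell in n-Sen from 86.6 ± 0.92 to 33.1 ± 0.28 CPM and was higher in control medium than in n-Sen (0.50 ± 0.064). Apcdd1 fell in n-Sen from 25.1 ± 0.78 to 6.07 ± 0.24 CPM, while Ccn4 rose by 0.97 ± 0.056 on the log2 scale. Many factors outside the pathway also act on Ccnd1 and Myc. The summed macrophage markers were 1156 to 1216 CPM in control and 1060 to 1067 CPM in alkaline medium. Of the 15, 9 were called lower and 0 higher, where 10.4% of all genes tested were called lower.

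**Figure D4:**
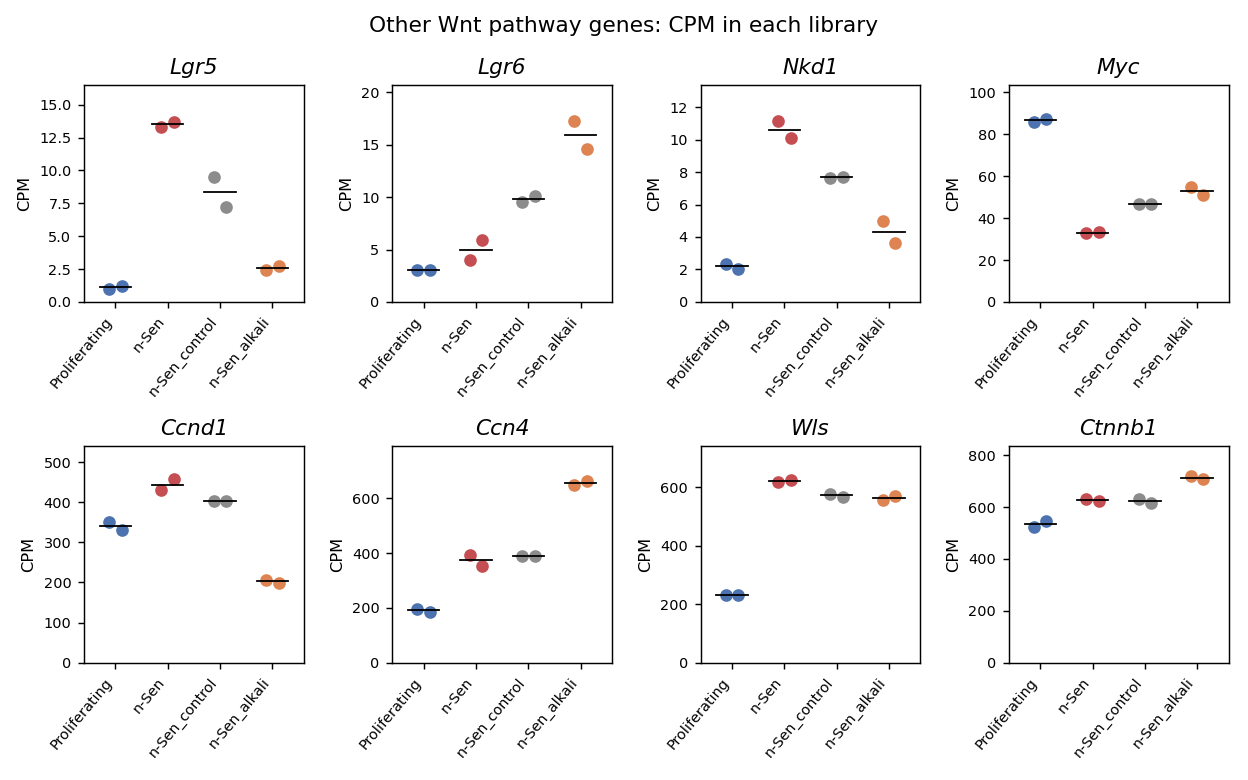
CPM (vertical axes, starting at 0) of 8 other pathway genes in each library by group; points are libraries and lines are means of 2. Lgr5 and Nkd1 are highest in n-Sen and lower in n-Sen_alkali (2.43 and 2.73 CPM for Lgr5), whereas Lgr6 and Ccn4 are highest in n-Sen_alkali.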

How the data were processed

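The submitters' processing notes name fastp (version 0.23.2), the aligner HISAT2 (version 2.1.0), featureCounts from the Subread package (version 2.0.2), DESeq2 (version 1.34.0) and mm10; annotation release and strand setting are not given in the sources used here. Libraries marked strand with dUTP, per the labels' protocols. The authors deposited expected counts (estimated counts per gene, fractional in 32.7% to 33.7% of nonzero values) in 2 tables of 4 libraries; 67.5% to 69.1% of whole values from 1 to 20 were even. Values were rounded. Symbols, coordinates and exon lengths came from GENCODE vM21 (GRCm38, the same build), matching 54809 IDs.

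edgeR 4.0.16 in R 4.3.3 was used: filterByExpr, TMM, quasi-likelihood test over all genes, Benjamini-Hochberg adjustment, threshold 0.05. Each table was fitted on its own, and control medium against n-Sen in a fit of all 8. SE was the absolute log2 fold change over the square root of F. CPM used TMM factors over 8 libraries. Counts simulated with a dispersion shared by all genes checked only that the procedure recovered set fold changes. They lacked the gene-by-gene spread of these libraries, so they do not test the calls made here. Alternatives were DESeq2 1.42.0, upper-quartile scaling, no filter, a replicate block, other sets of libraries and each library left out. Named pathway genes were, per list and comparison, up to 4 called with the smallest p and up to 2 against the majority. Receptors could be named whatever their result. The genes, lists and rules were chosen with earlier results of these data known.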

Additional observations from a re-analysis of the deposited data

How the results depend on the processing

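With 2 libraries per group, differences are measured against little replication. The alternatives refit the same libraries on which the 10 genes count as selected. A call kept by these genes, here or above, describes the processing and is not separate support. For n-Sen against Proliferating the 10 genes kept their direction and call under each of 9 alternatives, and for alkaline against control medium under all but 1, Axin2 without n-Sen_alkali replicate 2. In control medium against n-Sen, leaving out 1 library each gave 1181 to 1382 calls over all genes (2253 with all libraries), 2 to 3 of the 10 (4 with all) and 12 to 15 other pathway genes (22 with all). With the replicate number as a block, calls were 12726, 4310 and 2078 over all genes in the 3 comparisons, 10, 8 and 4 of the 10, and 62, 35 and 22 other pathway genes. Same-numbered libraries did not deviate together (correlations over genes of -0.028, -0.0090 and -0.0032), so the numbers were not read as pairs. Depth limits Axin2 (31 to 162 counts per library) and, in alkaline medium, Sfrp2 (55.5 and 62). Low pathway genes such as Porcn (in n-Sen), Notum and Rnf43 (in alkaline medium) passed in some alternatives only.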
